A study of Mus musculus with 36 samples.

Results

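The genes described here are 89 protein-coding genes that were high in unsorted mouse cells at Day 3 of the BMP4-induced primed to naïve transition (BiPNT) and low both in the starting epiblast stem cells (EpiSCs) and in Day 6 BV+SC+ cells. They were chosen by their TPM (a level scaled per transcript length and per library) in 7 bulk RNA-seq libraries that list 29267 genes, of which 21251 are protein-coding. A gene had to reach a TPM of 20 in both Day 3 libraries, and in each of them its TPM + 1 had to be at least 8 times that of the mean of the 3 EpiSC libraries and of the mean of the 2 BV+SC+ libraries. The TPM criteria were met by 107 genes, of which 2 are not protein-coding (H19 and Igf2os) and 16 were set aside by their symbols: 10 Hox genes, Wnt5a, Wnt6, Gata3, Col1a1, Gm14226 and 2610528A11Rik. Because the values of these 7 libraries chose the genes, they are given below as a description and carry no test.

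The EpiSCs are cultured cells of the primed state, kept with Activin A, bFGF and XAV939. For the transition they were moved to a medium with vitamin C, bFGF, LiCl, LIF, CHIR99021 and BMP4 together with inhibitors of the histone methyltransferases EZH2 (EPZ6438) and DOT1L (EPZ5676 or SGC0946). The 2 unsorted Day 3 libraries, 1 per condition, were made with and without SGC0946, and the labels do not say which other inhibitors these cells received or whether they carried a reporter. The Day 6 BV+SC+ cells carry the Blimp1-mVenus and Stella-ECFP reporters of germ cells and were sorted as positive for both, after 3 days with EPZ5676 at 2.5 µM and EPZ6438 at 1 µM and 3 more days in N2B27 with 2i and vitamin C. Their replicates were deposited under different names (2iJi and GK15). The study names GK15 as a culture condition of the second stage, whereas the labels give both replicates the same medium, so culture and replicate cannot be told apart. A second table of 4 libraries, which took no part in the choice, holds Day 3 cells of the same transition sorted by the surface receptor c-Kit, 2 libraries of c-Kit+ and 2 of c-Kit- cells. "Transiently" therefore refers to 3 kinds of sample only: Day 6 cells outside the BV+SC+ sort were not analysed here.

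BMP4 is a secreted ligand whose receptors phosphorylate SMAD proteins, and the Id, Msx and Dlx transcriptional regulators are among the genes it is best known to induce. In the early embryo BMP4 acts on the epiblast to allow primordial germ cells (PGCs) and extraembryonic mesoderm to form, and in culture it can turn primed cells towards trophoblast. The placenta that trophoblast builds depends on imprinted genes, which are expressed from 1 parental copy and include the growth factor Igf2 and its counterpart Phlda2, which restrains placental growth.

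The labels were checked on marker genes before the set was described. Kit, which encodes c-Kit, stood at 4.81 and 3.24 TPM in the c-Kit- libraries and at 99.6 and 96.0 TPM in the c-Kit+ libraries, 38.8-fold higher (log2 fold change 5.28, SE 0.21, adjusted p = 5.82e-07). Dot1l was at 59.5 to 83.5 TPM in all 11 libraries. Pou5f1, the core pluripotency factor, was at 2057 to 2078 TPM in EpiSCs, and the PGC gene Dppa3 was at 1162 and 1202 TPM in the BV+SC+ libraries and at 0 TPM in EpiSCs. Estimated counts per library, in units of 1e+06, were 2.44 to 3.07 for EpiSCs, 14.8 and 18.1 for BV+SC+ cells, 4.58 and 4.78 at Day 3 and 1.73 to 1.84 for the sorted cells.

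Across the set, the median TPM was 1.19 to 1.74 in the 3 EpiSC libraries, 78.4 at Day 3 without SGC0946, 63.5 at Day 3 with it, and 2.36 and 1.23 in the BV+SC+ libraries. The 89 genes together took 2.73% and 2.10% of all TPM in the Day 3 libraries without and with SGC0946, against 0.0587 to 0.0693% in EpiSCs. Levels at Day 3 spanned from 20.4 TPM to the 11786 TPM of Igf2, 30 genes had a Day 3 mean of at least 100 TPM, and 13 genes had no count at all in any EpiSC library. The lowest estimated count behind any of these Day 3 values was 46 and the median was 459.5. Just inside the criteria stood Tshz1, a zinc finger regulator, whose lowest ratio was 8.00 times, and Tgfbi, a secreted matrix protein, with 20.4 TPM in the library without SGC0946. Just outside stood Sox9, at 7.98 times, and Rtl8a, also at 7.98 times.

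**Figure D1:**
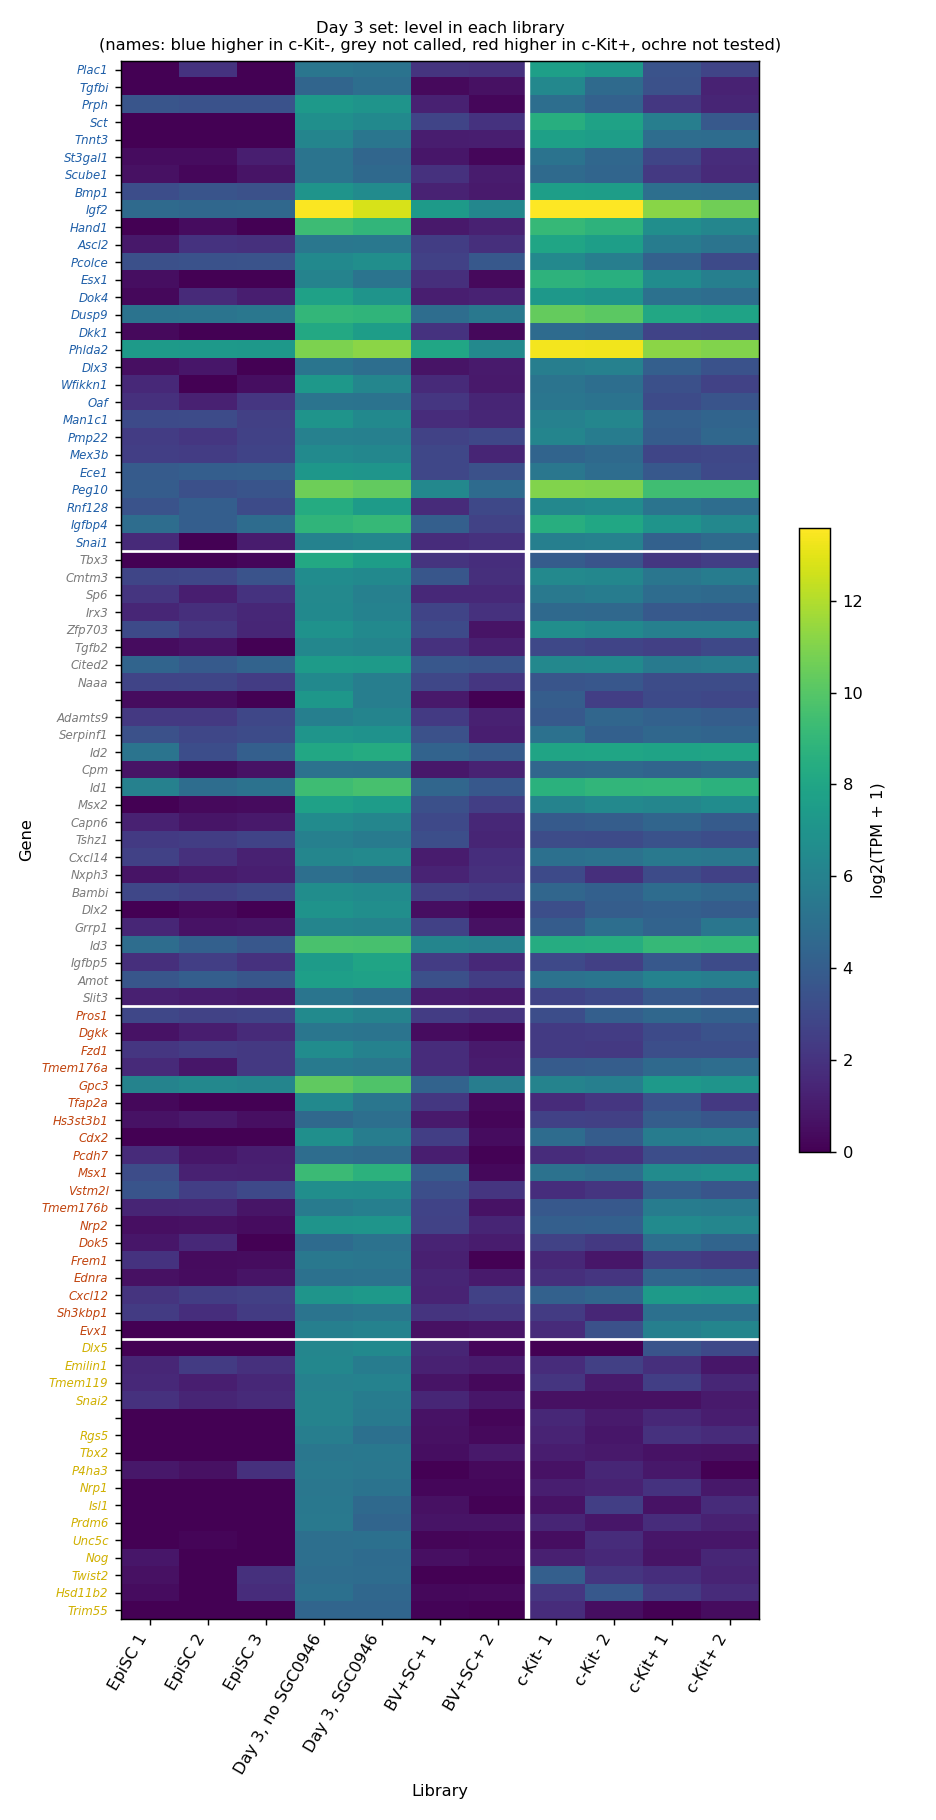
Level of the 89 genes, as log2(TPM + 1) by colour, in each of the 11 libraries (columns), with the 4 sorted libraries, which were made as a separate table, right of the white line. Rows are grouped by the c-Kit comparison (28 genes higher in c-Kit-, 26 not called, 19 higher in c-Kit+ and 16 not tested), and the 16 untested genes at the bottom are bright at Day 3 and dark in nearly every other column.

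Sorting on c-Kit divided the set. Igf2, Phlda2, Hand1 and Plac1, known from placenta and fetal growth, were higher in the c-Kit- population, Cxcl12, Nrp2 and Evx1 in the c-Kit+ population, and Id1 and Id2 were called in neither. A gene was called where the unadjusted P of the edgeR quasi-likelihood test lay under 0.05 and the fold over 2. By these criteria 28 genes had the higher level without c-Kit, 38.4% of the 73 members tested and 31.5% of all 89. The background was 13.6% of all 11018 genes tested. The opposite call was made for 19 genes, 26.0% of the members tested and 21.3% of all 89, against a background of 10.8%. In all, 73 of the 89 genes had enough counts to be tested, and 26 of them were not called. With the adjusted P in place of the unadjusted, 28 and 18 genes were called, against 12.9% and 9.98% of all genes. A gene that is high in 1 population only can enter the test through that population. Where at least 10 counts were required in every library, 60 genes of the set entered, of which 25 were called towards c-Kit- and 12 towards c-Kit+, beside 10.6% and 7.57% of 9385 genes.

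The median log2 fold change of the 73 tested genes, c-Kit+ minus c-Kit-, was -0.37, against 0.03 over all genes tested. It was -0.08 without c-Kit- replicate 1, so the median rests in part on that library, while the counts of called genes stayed between 28 and 30 and between 18 and 22 as each library was left out. The median size of the change, whatever its sign, was 1.52 for the set and 0.52 for all genes on the log2 scale. In bulk samples, fewer cells of a type and less RNA per cell cannot be told apart. The labels do not say whether the libraries of 1 population came from separate cultures, so p-values measure only the spread between these libraries.

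**Figure D2:**
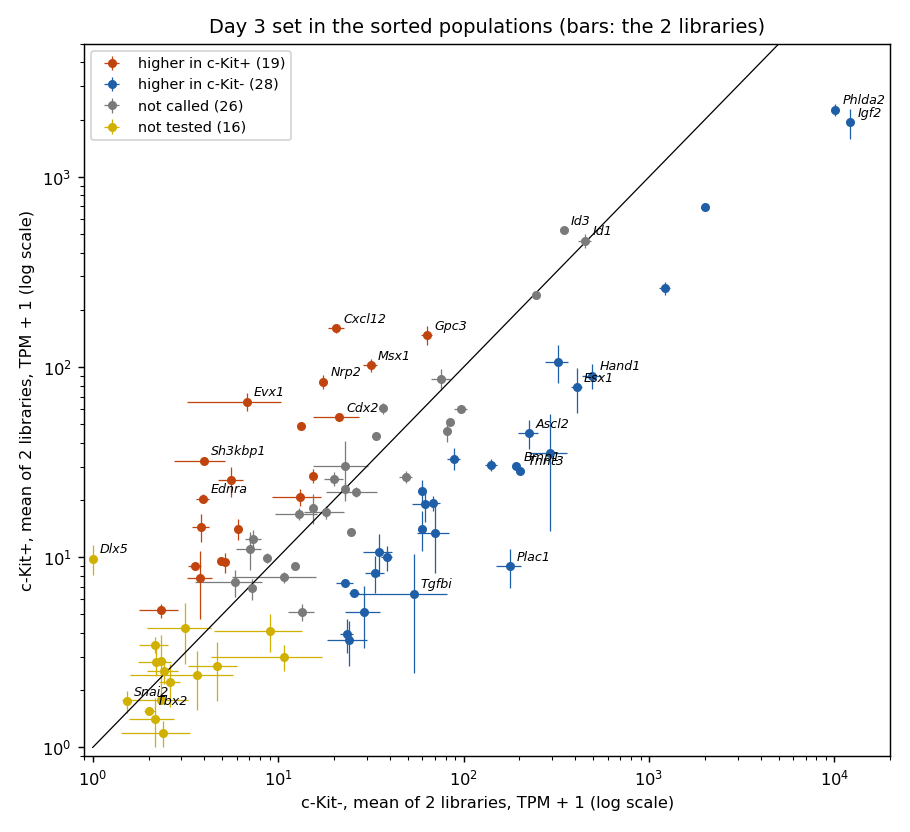
Mean level of the 89 genes in c-Kit- (x axis) and c-Kit+ cells (y axis), as TPM + 1 on log scales, with bars from the lower to the higher of the 2 libraries and colours for the test result. Genes higher in c-Kit- cells reach 12151 TPM (Igf2), while the c-Kit+ side reaches 158.7 TPM (Cxcl12), Id1 lies close to the line of equal levels and Id3 lies above it, at means of 524 TPM in c-Kit+ and 346 TPM in c-Kit- cells.

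Of the genes known as BMP targets or inhibitors, 10 of a list of 22 belong to the set: Id1, Id2, Id3, Msx1, Msx2, Dlx3, Dlx5, Hand1, Bambi and Nog. Of the 22 genes, 16 were tested between the sorted populations, 4 were called towards c-Kit+ (Msx1, Id4, Chrd and Fst) and 4 towards c-Kit- (Dlx3, Hand1, Smad9 and Fstl3). The list's members thus went both ways, with a median log2 fold change of 0.44.

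The 3 Id genes encode helix-loop-helix proteins that bind and block other helix-loop-helix factors. Id1 was at 60.7, 28.3 and 33.3 TPM in the EpiSC libraries, 658 and 791 TPM at Day 3 without and with SGC0946, 21.0 and 12.2 TPM in BV+SC+ cells, 415 and 486 TPM in c-Kit- cells and 501 and 419 TPM in c-Kit+ cells. The sorted populations overlapped (log2 fold change 0.18, SE 0.13, adjusted p = 0.30). Id2 was at 36.7, 8.10 and 16.1 TPM in EpiSCs, 285 and 325 TPM at Day 3, 18.9 and 13.98 TPM in BV+SC+ cells, 243 and 248 TPM in c-Kit- cells and 235 and 241 TPM in c-Kit+ cells. The log2 fold change of Id2, fitted on counts with TMM factors, was 0.09 (SE 0.11, adjusted p = 0.54), so its sign differs from that of the TPM means. Id3 was at 28.1, 16.9 and 12.03 TPM in EpiSCs, 834 and 779 TPM at Day 3, 72.6 and 62.4 TPM in BV+SC+ cells, 335 and 357 TPM in c-Kit- cells and 546 and 501 TPM in c-Kit+ cells. Both c-Kit+ values lay above both c-Kit- values, by a log2 fold change of 0.74 (SE 0.10, adjusted p = 0.000448), which is under the fold of 2 required for a call.

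The sequence before the Id3 start is shown as that of a BMP target present in both populations. It runs from 250 bases before to 50 bases after the start given by RefSeq on the GRCm38.p6 build, as do the other promoter windows shown. Capitals mark matches, on either strand, to any of 7 short motifs searched in every promoter. They were GATA of the GATA factors, the TATA box as TATAAA, GCCNNNGGC of AP-2 factors, CAGACA of SMAD proteins, CTTTGAT of TCF and LEF factors, CATTCC of TEAD factors and TGACTCA of AP-1.
Id3, chr4:136143572-136143871, plus strand: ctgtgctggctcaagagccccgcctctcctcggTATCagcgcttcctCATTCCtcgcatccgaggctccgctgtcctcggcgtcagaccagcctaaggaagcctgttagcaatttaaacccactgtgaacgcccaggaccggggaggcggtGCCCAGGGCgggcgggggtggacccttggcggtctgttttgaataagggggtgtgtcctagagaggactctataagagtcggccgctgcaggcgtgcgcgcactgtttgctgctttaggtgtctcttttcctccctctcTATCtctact
The Id3 window holds 2 matches to GATA, 1 to GCCNNNGGC and 1 to CATTCC.

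The homeobox genes downstream of BMP divided between the populations. Msx1 was at 7.85, 1.41 and 1.3 TPM in EpiSCs, 611 and 420 TPM at Day 3 without and with SGC0946, 14.1 and 0.23 TPM in BV+SC+ cells, 33.3 and 27.7 TPM in c-Kit- cells and 93.5 and 109 TPM in c-Kit+ cells. It was higher in c-Kit+ cells (log2 fold change 1.87, SE 0.18, adjusted p = 5.88e-05), although both populations lay far under the unsorted level. Msx2, its close relative, was at 66.0 and 83.6 TPM in c-Kit- cells and 74.8 and 97.2 TPM in c-Kit+ cells, and the populations overlapped (log2 fold change 0.35, SE 0.18, adjusted p = 0.14). Dlx5 had no count in either c-Kit- library and 14 and 10 counts in the c-Kit+ libraries, too few to enter the test. Dlx3, a homeobox gene needed in the placenta, went the other way, with 55.5 and 61.1 TPM in c-Kit- cells and 16.6 and 9.76 TPM in c-Kit+ cells (log2 fold change -2.01, SE 0.25, adjusted p = 0.000224). Bambi, a receptor decoy that dampens BMP signals, was at 21.4 and 16.6 TPM in c-Kit- cells and 26.97 and 22.6 TPM in c-Kit+ cells (log2 fold change 0.52, SE 0.19, adjusted p = 0.054). Nog, the secreted BMP antagonist, was at 29.6 and 25.8 TPM at Day 3 but at no more than 1.94 TPM in any sorted library and was not tested.

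The highest genes of the set were imprinted. Igf2, the fetal growth factor, was at 24.9, 21.9 and 23.4 TPM in EpiSCs and at 11786 and 7044 TPM at Day 3 without and with SGC0946. It was at 170 and 75.9 TPM in BV+SC+ cells, 12049 and 12253 TPM in c-Kit- cells and 2284 and 1590.45 TPM in c-Kit+ cells. All 4 sorted libraries thus held it far above EpiSCs, and it was 5.74-fold higher in c-Kit- than in c-Kit+ cells (log2 fold change -2.52, SE 0.11, adjusted p = 8.00e-07). Igf2 lies on chromosome 7 (142650766 to 142666816, minus strand) and overlaps the antisense gene Igf2os, whose reads could not be told apart from its own unless the counting used strand, which the sources used here do not give. It also shares 3598 bases of transcript with the gene model Gm49394, which neither table lists.

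Phlda2 was at 169, 162 and 149 TPM in EpiSCs, 1921 and 2361 TPM at Day 3 without and with SGC0946, and 262 and 82.5 TPM in BV+SC+ cells. The c-Kit- libraries held 10409 and 9839 TPM and the c-Kit+ libraries 2426 and 2087 TPM, a 4.07-fold difference (log2 fold change -2.02, SE 0.08, adjusted p = 5.82e-07). Peg10, a retrotransposon-derived imprinted gene needed for the placenta, was at 14.5, 9.13 and 10.4 TPM in EpiSCs, 1538 and 1274 TPM at Day 3, 79.1 and 25.6 TPM in BV+SC+ cells, 2035 and 1988 TPM in c-Kit- cells and 693 and 693 TPM in c-Kit+ cells. It was 2.63-fold higher in c-Kit- cells (adjusted p = 5.82e-07). Ascl2, a helix-loop-helix factor of the placental spongiotrophoblast, was at 250.7 and 196 TPM in c-Kit- cells and 51.8 and 35.9 TPM in c-Kit+ cells (log2 fold change -2.28, SE 0.18, adjusted p = 1.42e-05), after 0.84, 3.04 and 2.65 TPM in EpiSCs and 41.5 and 42.3 TPM in the unsorted Day 3 libraries. Of the list of 23 growth-related imprinted genes, 18 were tested, 6 were called towards c-Kit- and 5 towards c-Kit+. The 4 that belong to the set were all on the c-Kit- side, while the 5 on the c-Kit+ side (Meg3, Peg3, Plagl1, Snrpn and Usp29) lie outside it.

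Tnnt3, Igf2, Ascl2 and Phlda2 lie within 142498836 to 143503150 of chromosome 7, and all 4 were higher in c-Kit- cells. Tnnt3 encodes a troponin T of fast skeletal muscle and is 135 kb from Igf2. It was at 0 TPM in all 3 EpiSC libraries, 71.5 and 38.8 TPM at Day 3, 1.10 and 1.21 TPM in BV+SC+ cells, 212 and 191 TPM in c-Kit- cells and 28.3 and 26.9 TPM in c-Kit+ cells (log2 fold change -2.84, SE 0.20, adjusted p = 8.11e-06). Other genes of the interval did not all follow. Cd81 was at 132 and 98.2 TPM in c-Kit- cells and 107 and 101 TPM in c-Kit+ cells (log2 fold change 0.00, adjusted p = 0.99), and Tssc4 had a log2 fold change of -0.40 (adjusted p = 0.18). Slc22a18, a transporter gene next to Phlda2 and no member of the set, was at 51.2 and 35.2 TPM in c-Kit- cells and 5.55 and 8.37 TPM in c-Kit+ cells (log2 fold change -2.54, adjusted p = 0.000994).

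Plac1, an X-linked gene named for its placental expression, was at 0, 2.97 and 0 TPM in EpiSCs, 38.9 and 34.7 TPM at Day 3 without and with SGC0946, 3.16 and 2.82 TPM in BV+SC+ cells, 204 and 148 TPM in c-Kit- cells and 10.0 and 5.92 TPM in c-Kit+ cells. Plac1 was 21.1-fold higher in c-Kit- cells (log2 fold change -4.40, SE 0.31, adjusted p = 8.97e-06), the largest difference in that direction with all 4 libraries, though without c-Kit+ replicate 1 that of Tgfbi was larger (-5.0001, against -4.96). Hand1, a helix-loop-helix factor of trophoblast giant cells and extraembryonic mesoderm, was at 0, 0.38 and 0 TPM in EpiSCs, 636 and 493 TPM at Day 3, 0.88 and 1.36 TPM in BV+SC+ cells, 553 and 435 TPM in c-Kit- cells and 103 and 75.3 TPM in c-Kit+ cells (log2 fold change -2.35, SE 0.17, adjusted p = 8.38e-06). Esx1, an X-linked placental homeobox gene, was at 433 and 378 TPM in c-Kit- cells and 97.9 and 56.5 TPM in c-Kit+ cells (log2 fold change -2.26, SE 0.20, adjusted p = 3.62e-05). Plac1, Esx1, Ascl2, Tnnt3 and Phlda2 were each higher in the c-Kit- libraries than in either unsorted Day 3 library, levels that come from separately made tables.

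Of a list of 28 trophoblast and placental genes, 20 were tested, 14 were called towards c-Kit- and 3 towards c-Kit+, with a median log2 fold change of -2.18. Outside the set, 8 of 12 tested genes of that list were higher in c-Kit- cells, among them Gata2 (437 and 386 TPM, against 59.5 and 24.3 TPM in c-Kit+ cells) and Krt8 (1892 and 1740 TPM, against 401 and 306 TPM). The list's summed level was 30357 and 29118 TPM in c-Kit- cells and 6731 and 5381 TPM in c-Kit+ cells. Igf2 alone made up 12049 and 12253 TPM of this in c-Kit- cells and 2284 and 1590 TPM in c-Kit+ cells. Elf5, a defining factor of trophoblast stem cells, was at 7.56 and 2.92 TPM in c-Kit- cells and at 6.61 and 2.10 TPM in c-Kit+ cells.

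The promoter of Phlda2 and both RefSeq promoters of Plac1 are shown as those of genes with a large difference towards c-Kit- cells. Motif matches are in capitals as above.
Phlda2, chr7:143502475-143502774, minus strand: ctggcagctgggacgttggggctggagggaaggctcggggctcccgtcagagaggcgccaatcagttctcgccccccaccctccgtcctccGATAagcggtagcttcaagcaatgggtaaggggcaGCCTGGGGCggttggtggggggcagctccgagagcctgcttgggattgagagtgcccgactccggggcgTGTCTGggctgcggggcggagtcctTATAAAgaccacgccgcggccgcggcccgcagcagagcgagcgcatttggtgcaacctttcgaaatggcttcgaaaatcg
Plac1, chrX:53114356-53114655, minus strand: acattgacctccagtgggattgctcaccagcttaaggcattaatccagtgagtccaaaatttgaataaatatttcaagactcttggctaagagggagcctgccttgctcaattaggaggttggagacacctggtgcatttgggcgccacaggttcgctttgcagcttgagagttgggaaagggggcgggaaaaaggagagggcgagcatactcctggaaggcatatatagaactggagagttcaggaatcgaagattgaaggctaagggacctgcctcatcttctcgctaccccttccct
Plac1, chrX:53240061-53240360, minus strand: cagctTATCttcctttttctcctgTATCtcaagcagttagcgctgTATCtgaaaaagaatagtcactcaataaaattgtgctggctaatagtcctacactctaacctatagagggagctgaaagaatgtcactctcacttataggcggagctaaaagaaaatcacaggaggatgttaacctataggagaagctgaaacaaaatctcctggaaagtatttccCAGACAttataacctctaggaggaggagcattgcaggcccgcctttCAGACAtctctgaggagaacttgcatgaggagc
The Phlda2 window holds 1 match to GATA, 1 match to TATAAA, 1 match to GCCNNNGGC and 1 match to CAGACA. The first Plac1 window holds none of the 7 motifs, and the second, which lies upstream of it, holds 3 matches to GATA and 2 to CAGACA.

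Bmp1, a protease that matures procollagen, was at 198 and 184 TPM in c-Kit- cells and 30.0 and 28.1 TPM in c-Kit+ cells (log2 fold change -2.58, SE 0.12, adjusted p = 9.29e-07). Dusp9, an X-linked phosphatase of MAP kinases, was at 1301 and 1124 TPM in c-Kit- cells and 279 and 238 TPM in c-Kit+ cells (adjusted p = 1.12e-06). Sct, the precursor of the hormone secretin, was at 360 and 225 TPM in c-Kit- cells and at 55.7 and 12.7 TPM in c-Kit+ cells. Its c-Kit+ libraries differed over 4-fold from each other, and the log2 fold change was -2.96 (SE 0.45, adjusted p = 0.000708), -4.34 without c-Kit+ replicate 1 and -2.28 without c-Kit+ replicate 2. Tgfbi was at 80.5 and 24.9 TPM in c-Kit- cells and at 9.43 and 1.46 TPM in c-Kit+ cells (log2 fold change -3.15, SE 0.67, adjusted p = 0.00467), the largest SE among the called genes. Without 1 library its log2 fold change ran from -5.0001 (without c-Kit+ replicate 1) to -2.10 (without c-Kit- replicate 1), and it was -2.37 without c-Kit+ replicate 2 and -3.80 without c-Kit- replicate 2. The IGF-binding protein Igfbp4, the WNT inhibitor Dkk1, the intermediate filament gene Prph, the adaptor Dok4, the secreted protein Scube1, the sialyltransferase St3gal1, the ubiquitin ligase Rnf128 and the repressor Snai1 were on the same side, with log2 fold changes from -2.99 (Prph) to -1.31 (Snai1). Without c-Kit+ replicate 1, Prph was at -3.63 and St3gal1 at -3.46, against -2.62 with it.

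On the c-Kit+ side, the chemokine Cxcl12 had the largest level. Cxcl12, which guides migrating germ cells and blood progenitors, was at 3.11, 4.56 and 4.91 TPM in EpiSCs, 133 and 160 TPM at Day 3 without and with SGC0946, 1.58 and 5.10 TPM in BV+SC+ cells, 17.5 and 21.6 TPM in c-Kit- cells and 167 and 151 TPM in c-Kit+ cells (log2 fold change 3.25, SE 0.16, adjusted p = 1.29e-06). The Day 6 BV+SC+ levels overlapped those of EpiSCs, and over the genes that both tables list the c-Kit+ levels were 232 and 213 TPM and the unsorted ones 134 and 160 TPM. Evx1, a homeobox gene of the posterior primitive streak, was at 0 TPM in all 3 EpiSC libraries, 56.2 and 63.0 TPM at Day 3, 0.55 and 0.70 TPM in BV+SC+ cells, 2.21 and 9.31 TPM in c-Kit- cells and 57.9 and 71.9 TPM in c-Kit+ cells. The difference of Evx1 (log2 fold change 3.72, SE 0.37, adjusted p = 6.88e-05) rested on unequal c-Kit- libraries: it was 3.04 without c-Kit- replicate 1 and 4.91 without c-Kit- replicate 2. Evx1 overlaps the antisense gene Evx1os, with the same limit on strand as for Igf2. That limit also holds for other members that overlap a gene on the opposite strand, among them Dok4 (Polr2c), Gpc3, Nrp2, Ednra, Tbx3, Tfap2a and Tnnt3.

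Nrp2, a co-receptor for semaphorins and VEGF, was at 0.47, 0.55 and 0.37 TPM in EpiSCs, 128 and 132 TPM at Day 3, 5.42 and 1.62 TPM in BV+SC+ cells, 15.97 and 16.9 TPM in c-Kit- cells and 89.7 and 75.6 TPM in c-Kit+ cells (log2 fold change 2.46, SE 0.13, adjusted p = 1.81e-06). Its paralogue Nrp1 was at 41.5 and 35.3 TPM at Day 3 but at no more than 2.90 TPM in any sorted library. Ednra, the endothelin A receptor, was at 2.62 and 3.24 TPM in c-Kit- cells and 20.5 and 18.2 TPM in c-Kit+ cells (log2 fold change 2.85, SE 0.31, adjusted p = 0.000102). Sh3kbp1, an X-linked adaptor of receptor tyrosine kinases, was at 4.17 and 1.75 TPM in c-Kit- cells and 30.8 and 31.5 TPM in c-Kit+ cells (log2 fold change 3.40, SE 0.25, adjusted p = 1.15e-05). Gpc3, an X-linked proteoglycan of the cell surface, was higher in c-Kit+ cells, at 163 and 130 TPM against 66.8 and 58.2 TPM (log2 fold change 1.38, SE 0.15, adjusted p = 0.00012), yet the unsorted Day 3 libraries held 1246 and 927 TPM.

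Cdx2, a homeobox gene of both the trophectoderm and the posterior embryo, was at 0 TPM in all 3 EpiSC libraries, 108 and 52.97 TPM at Day 3 without and with SGC0946, 4.77 and 0.37 TPM in BV+SC+ cells, 26.5 and 14.4 TPM in c-Kit- cells and 51.5 and 55.7 TPM in c-Kit+ cells. It was higher in c-Kit+ cells (log2 fold change 1.53, SE 0.26, adjusted p = 0.0015), opposite to most of the placental list on which it stands. Tfap2a, which also stands on that list, was called higher in c-Kit+ cells on low levels, 9.79 and 3.75 TPM against 2.22 and 3.38 TPM (log2 fold change 1.4, SE 0.58, adjusted p = 0.081). Its call was lost without c-Kit+ replicate 1 (log2 fold change 0.54) and without c-Kit- replicate 1 (1.11). Of 25 primitive streak and caudal mesoderm genes, 10 were tested, 6 were called towards c-Kit+ (among them Evx1, Cdx2, T, Eomes and Wnt5b) and 1 towards c-Kit- (Snai1).

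The promoters of Cxcl12 and Nrp2 are shown as those of c-Kit+ genes that hold the motif CTTTGAT.
Cxcl12, chr6:117168285-117168584, plus strand: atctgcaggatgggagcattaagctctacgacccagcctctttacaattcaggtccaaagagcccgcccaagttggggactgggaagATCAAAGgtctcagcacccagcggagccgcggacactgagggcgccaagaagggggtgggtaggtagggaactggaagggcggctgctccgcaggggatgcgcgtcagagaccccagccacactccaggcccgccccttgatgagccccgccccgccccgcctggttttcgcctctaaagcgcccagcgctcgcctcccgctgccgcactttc
Nrp2, chr1:62703067-62703366, plus strand: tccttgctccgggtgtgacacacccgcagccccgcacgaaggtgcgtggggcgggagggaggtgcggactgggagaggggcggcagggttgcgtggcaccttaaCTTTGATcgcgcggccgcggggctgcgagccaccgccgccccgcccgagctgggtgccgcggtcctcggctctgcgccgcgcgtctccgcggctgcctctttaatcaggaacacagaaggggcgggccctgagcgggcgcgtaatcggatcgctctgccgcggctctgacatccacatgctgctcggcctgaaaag
CTTTGAT was found in 4 of 25 promoter windows of the genes higher in c-Kit+ cells (Cxcl12, Nrp2, Tmem176a and Tmem176b) and in 0 of 30 windows of those higher in c-Kit- cells, beside 3.73% of all 32851 promoters. Tmem176a and Tmem176b are overlapping neighbours, so those 4 windows come from 3 places in the genome. TATAAA was found in 2 of the 25 and 5 of the 30 windows, beside 13.6% of all promoters. GATA, which is short and can overlap the end of CTTTGAT, was found in 14 of the 25 and 13 of the 30 windows, beside 57.9%. Among promoters of other genes at 20 TPM or more in both Day 3 libraries, the shares were 2.37% for CTTTGAT, 6.08% for TATAAA and 42.3% for GATA. The direction of the GATA shares, and of the TATAAA share on the c-Kit+ side, thus depends on the background chosen. The TATAAA share on the c-Kit- side, 16.7% from 5 windows, lay above both backgrounds. Over the whole set, 62 of 89 genes had a RefSeq promoter, 80 windows in all, and their median GC content was 62.2%, against 62.0% for other genes at 20 TPM or more in both Day 3 libraries. These matches are letters in a window and do not show binding.

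**Figure D3:**
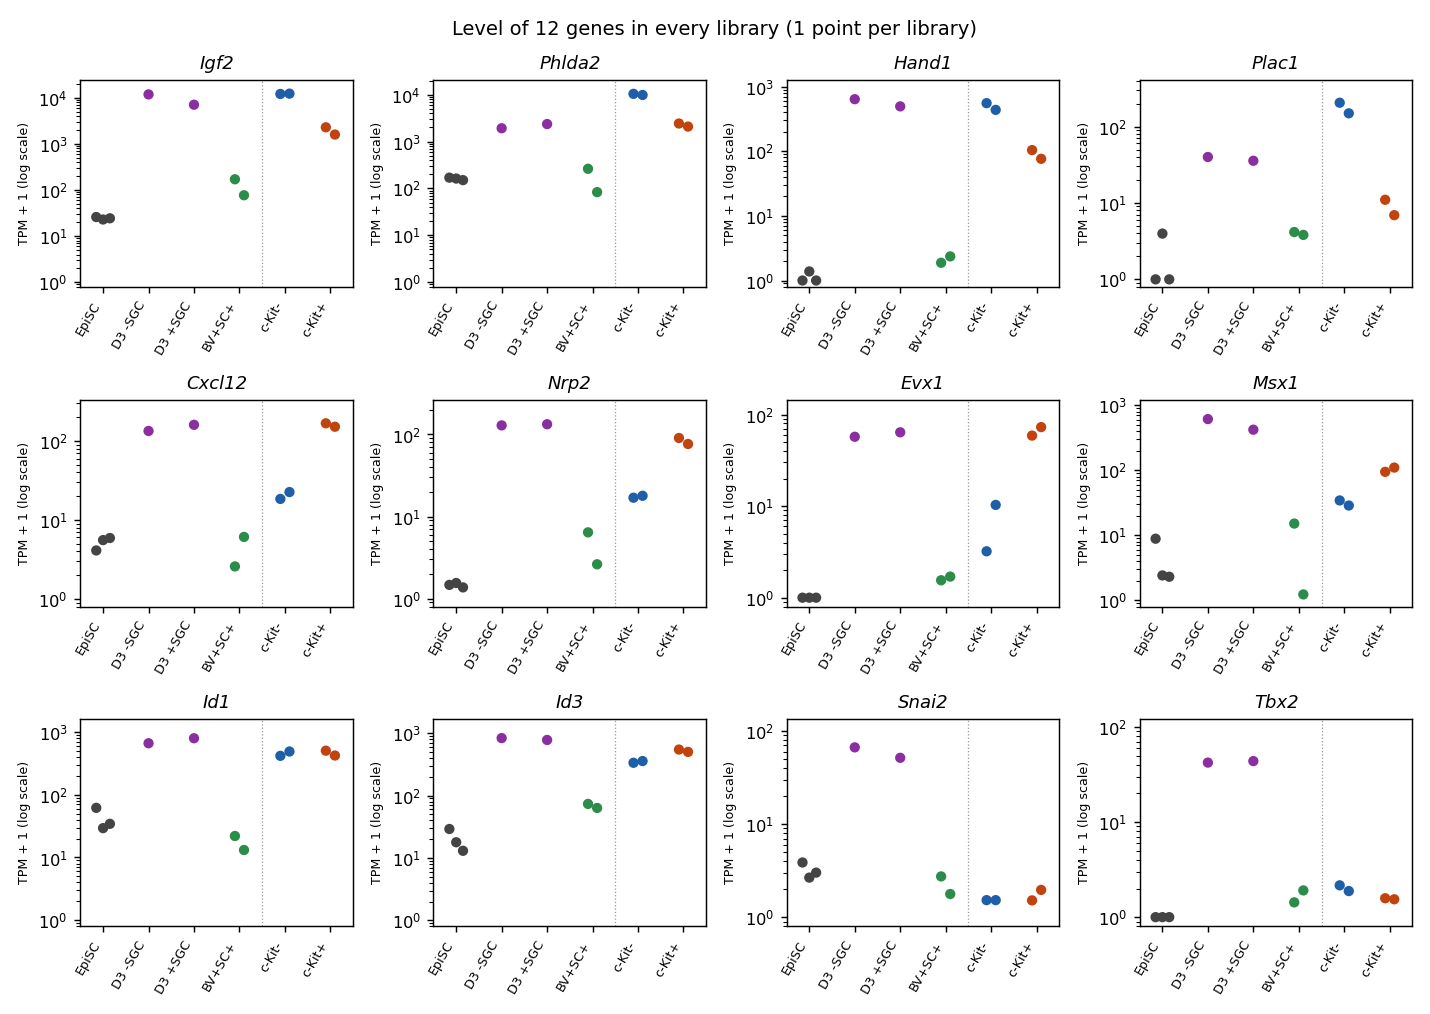
TPM + 1 (log scale) of 12 genes in each library, 1 point per library, with the separately made sorted libraries right of the dotted line. Igf2, Phlda2, Hand1 and Plac1 are higher in c-Kit- cells, Cxcl12, Nrp2, Evx1 and Msx1 are higher in c-Kit+ cells, Id1 overlaps between the populations, Id3 is higher in c-Kit+ cells by under 2-fold, and Snai2 and Tbx2 are close to the bottom of the scale in both.

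A further group was high in the unsorted Day 3 cells and low in both sorted populations. Of the 89 genes, 30 reached a mean deposited TPM of 20 in both populations, 15 in c-Kit- cells only, 8 in c-Kit+ cells only and 36 in neither. Among the 6363 other genes at 20 TPM or more in both Day 3 libraries, 7.02% reached 20 TPM in neither, against 40.4% of the set. By deposited TPM, 73 of the 89 genes and 56.0% of the other genes were higher unsorted than in the higher sorted population. For 21 genes of the set (23.6%) the unsorted TPM + 1 was at least 8 times that of the higher sorted population, against 0.330% of the other genes. The rule picked genes for high values in these very Day 3 libraries, so this excess carries no test.

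The 2 tables also differ in what they list. The 28910 genes in both took 99.6% of TPM in the Day 3 libraries but 70.9 to 79.5% in the sorted ones. With TPM rescaled over the shared genes, 14 genes of the set (15.7%) kept a ratio of at least 8, against 0.251% of the other genes. On that scale 63 of the 89 genes (70.8%) and 24.1% of the other genes were higher unsorted, with median ratios of 2.13 and 0.79. Among these 14 were Emilin1, Igfbp5, Nog, Nrp1, P4ha3, Prdm6, Rgs5, Snai2, Tbx2, Tbx3, Tgfb2, Tmem119 and Unc5c. The labels give ribosomal RNA depletion for the unsorted libraries, the study's methods name an mRNA kit, and sorting, kit and culture cannot be told apart.

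Snai2, a repressor that drives the epithelial to mesenchymal transition, was at 2.88, 1.67 and 2.02 TPM in EpiSCs, 65.8 and 50.6 TPM at Day 3 without and with SGC0946, 1.75 and 0.78 TPM in BV+SC+ cells, 0.53 and 0.53 TPM in c-Kit- cells and 0.52 and 0.97 TPM in c-Kit+ cells. Its relative Snai1, in contrast, was at 56.1 and 60.95 TPM in c-Kit- cells and 17.9 and 24.6 TPM in c-Kit+ cells. Tbx2, a T-box repressor, was at 0 TPM in all 3 EpiSC libraries, 41.1 and 42.7 TPM at Day 3 and no more than 1.16 TPM in any sorted library. Tbx3, its close relative and a factor of naïve pluripotency and mesoderm, was at 0, 0 and 0.16 TPM in EpiSCs, 296 and 187 TPM at Day 3, 3.18 and 2.37 TPM in BV+SC+ cells, 14.6 and 10.4 TPM in c-Kit- cells and 3.63 and 4.68 TPM in c-Kit+ cells. The log2 fold change of Tbx3, fitted on counts, was -0.99 (SE 0.31, adjusted p = 0.031), just under the fold of 2. Its counts were 40 and 41 in c-Kit- cells and 17 and 22 in c-Kit+ cells. The TPM means, 12.5 and 4.16, differ by more than the fitted fold.

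Igfbp5, an IGF-binding protein, was at 174 and 240 TPM unsorted and at 4.93 to 12.6 TPM sorted. Isl1, a LIM-homeobox gene of lateral mesoderm and amnion, was at 42.1 and 23.9 TPM unsorted and at 0.57 to 4.69 TPM sorted, and fell under a ratio of 8 after rescaling. Kit itself was at 102 and 120 TPM in the unsorted libraries without and with SGC0946, while Pou5f1 was at 67.3 and 549 TPM there, against 73.9 and 62.7 TPM in c-Kit- cells and 1226 and 1291 TPM in c-Kit+ cells. By deposited TPM, summed markers of fibroblasts were at 688 and 791 TPM in the unsorted Day 3 libraries and at 294 to 348 TPM in the c-Kit libraries. In the BV+SC+ libraries they were at 624 and 422 TPM. Summed retinoic acid genes were also higher unsorted, at 963 and 817 TPM, against 278 to 450 TPM in the c-Kit libraries. Other lists went the other way, such as keratinocyte and surface ectoderm markers, at 214 and 226 TPM unsorted and 770 to 1102 TPM in the c-Kit libraries. The part of these lists in the difference between unsorted and sorted cells was not tested.

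**Figure D4:**
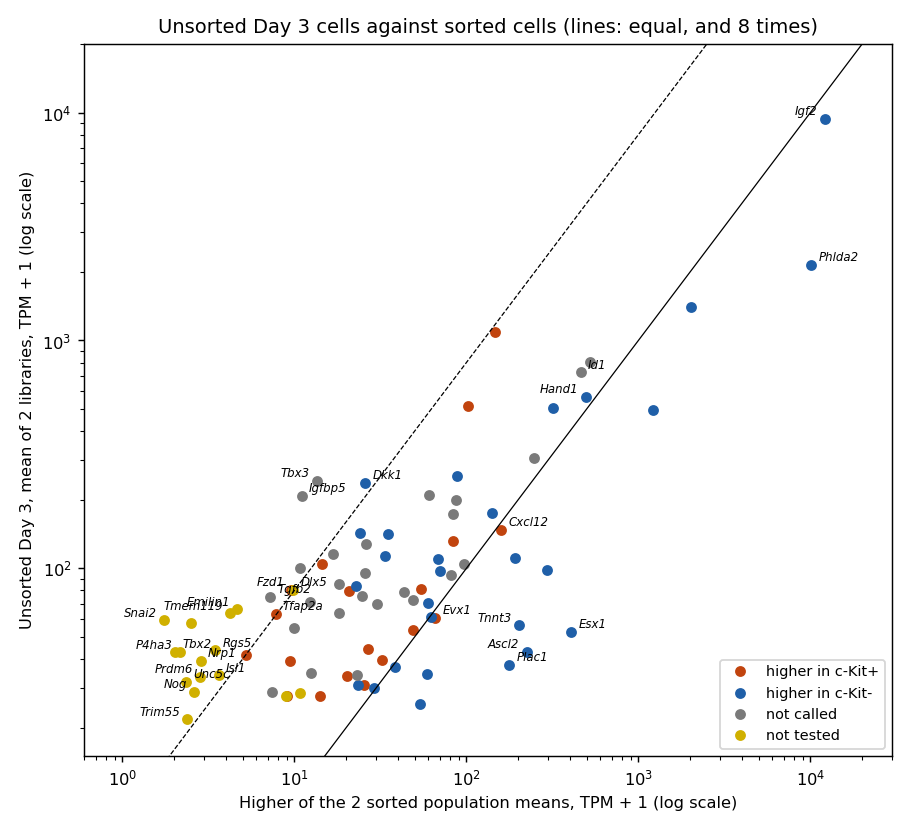
Mean of the 2 unsorted Day 3 libraries (y axis) against the higher of the 2 sorted population means (x axis) for the 89 genes, as deposited TPM + 1 on log scales, with a solid line for equal levels and a dashed line for 8 times. Of the 21 genes on or above the dashed line most are named, with Igf2, Phlda2, Plac1 and other genes near or under the solid line for comparison.

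SGC0946 moved most genes of the set by less than 2-fold. With 1 library per condition there is no test, and the interval given for each gene is an exact binomial 95% interval that covers counting error only. On the log2(TPM + 1) scale, 0 of the 89 genes were over 2-fold higher with SGC0946 and 4 were over 2-fold lower, beside 6.33% and 3.45% of the 14038 genes with a TPM over 1 in either library. Among the 6631 other genes of any type at 20 TPM or more in both Day 3 libraries, the shares were 0.603% and 0.241%. They include genes that met the TPM criteria but were set aside by symbol or type. Of those, Hoxa9 was at 167 TPM without and 29.7 TPM with SGC0946, and Hoxc10 at 208 and 65.5 TPM. Col1a1 changed little (224 and 210 TPM). The symbol filter thus also took out genes over 2-fold lower. The rule required high values in both libraries, which limits how far a member can differ between them. Of the 89 genes, 64 were lower and 25 were higher with SGC0946, with a median log2 change of -0.18, against 0.01 over all genes and -0.02 over the other genes at 20 TPM or more. The share of those other genes that were lower was not counted.

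Of the 4 genes over 2-fold lower, Tfap2a, Prdm6 and Cdx2 encode transcriptional regulators. Tfap2a, an AP-2 factor of surface ectoderm and trophoblast, was at 84.9 TPM without and 39.1 TPM with SGC0946, a log2 change of -1.10 (interval -1.33 to -0.91). Prdm6 was at 44.3 and 20.5 TPM (-1.07, interval -1.43 to -0.79), and Cdx2 at 108 and 52.97 TPM (-1.01, interval -1.24 to -0.82). With a pseudocount of 5 TPM in place of 1, 2 genes passed a fold of 2.

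Igf2 was lower by 0.74 on the log2 scale (interval -0.76 to -0.72), from 11786 to 7044 TPM, whereas Phlda2 was higher, from 1921 to 2361 TPM (0.30, interval 0.22 to 0.37). The other genes highest with SGC0946 were Tgfbi (0.46, interval 0.15 to 0.82), Igfbp5 (0.46, interval 0.39 to 0.53), Hs3st3b1, a heparan sulphate enzyme (0.41, interval 0.20 to 0.66), and the adaptor Dok5, whose interval held 0 (0.36, interval -0.01 to 0.76). Of the 28 genes higher in c-Kit- cells, 22 were lower and 6 higher with SGC0946, and of the 19 genes higher in c-Kit+ cells, 11 were lower and 8 higher. Among the 26 genes not called, 20 were lower and 6 higher. The same counts over genes outside the set were not made, so no link between c-Kit side and SGC0946 can be read from them. Summed PGC genes were at 1480 TPM without and 3661 TPM with SGC0946, and summed trophoblast and placental genes, a list that holds 8 genes of the set, at 17673 and 12590 TPM. Igf2 alone made up 11786 and 7044 TPM of the trophoblast and placental sum, so this sum mostly follows 1 gene. Phlda2, on the same list, was higher with SGC0946. The part of these lists in the set's change was not tested.

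**Figure D5:**
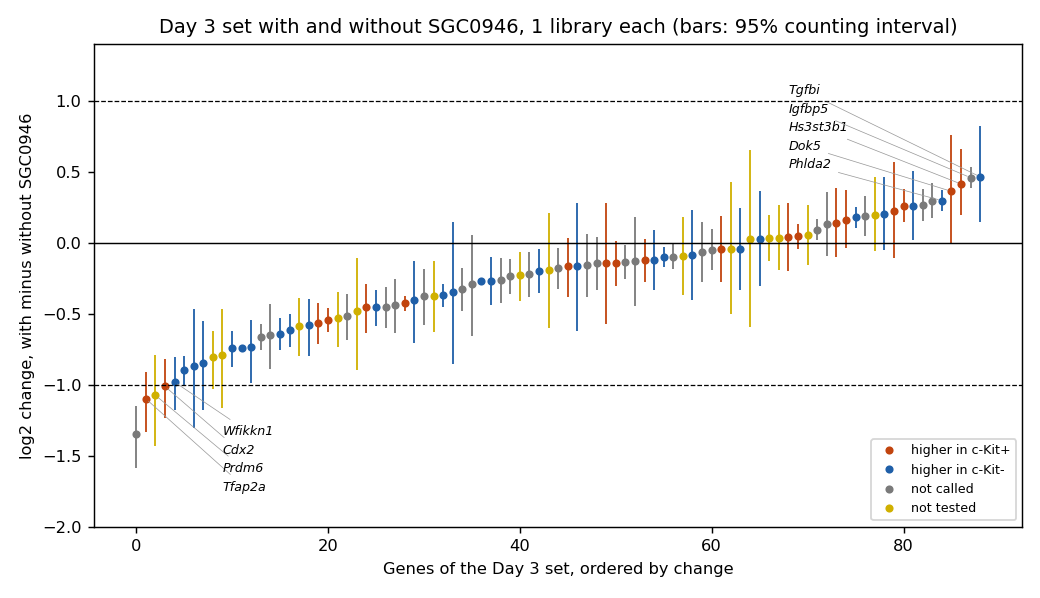
Log2 change of TPM + 1 with minus without SGC0946 for the 89 genes (y axis), ordered by size (x axis), with bars for the 95% counting interval and colours for the c-Kit result. The 4 lowest genes pass the dashed line of a 2-fold change, and none reaches it on the upper side.

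The low side of the criteria was not equally low in every library. Of the 89 genes, 30 were higher in both BV+SC+ libraries than in all EpiSC libraries, 16 were lower and 43 overlapped. The rule required low values in both groups, and depth differed between them. The same count over all genes was not made, so the imbalance cannot be read as a trait of the set. BV+SC+ replicate 1 held more of 64 genes and replicate 2 more of 24. Among the 68 genes with a TPM over 1 in either BV+SC+ library, 24 were over 2-fold higher in replicate 1 and 4 in replicate 2, beside 623 and 579 of 11977 protein-coding genes. Msx1 is an example, with 14.1 TPM in replicate 1 and 0.23 TPM in replicate 2, and Cdx2 another, with 4.77 and 0.37 TPM. The choice of genes depended little on this: 87 of the 89 genes remained without BV+SC+ replicate 1, and 82 without replicate 2.

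By position, 9 of the 89 genes (10.1%) lie on the X chromosome, beside 3.05% of the other genes at 20 TPM or more in both Day 3 libraries and 4.04% of protein-coding genes. Other chromosomes also held more than their share. Chromosome 11 held 11 members (12.4%, beside 9.12% and 7.46%) and chromosome 5 held 9 (10.1%, beside 6.57% and 5.68%). The X-linked members lay on both sides of the c-Kit comparison: Dusp9, Rnf128, Esx1 and Plac1 were called towards c-Kit-, Gpc3, Sh3kbp1 and Dgkk towards c-Kit+, and Amot and Capn6 were not called. Amot, which regulates the Hippo pathway, was at 34.0 and 37.3 TPM in c-Kit- cells and 63.9 and 55.7 TPM in c-Kit+ cells (log2 fold change 0.99, SE 0.12, adjusted p = 0.000204), just under the required fold. Only 2 pairs of members lie within 200 kb of each other, Tmem176b with Tmem176a and Tnnt3 with Igf2, and both members of each pair were called on the same side. The longest annotated transcript of a member had a median of 2.61 kb and a GC content of 54.5%, beside 3.30 kb and 50.3% for the other genes at 20 TPM or more.

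Only 22 of the 89 genes stand on any of 18 gene lists compared between the sorted populations. Of the lists with members not yet described, the amnion and lateral mesoderm list had 3 genes called towards c-Kit- and 1 towards c-Kit+ of 6 tested, the naïve pluripotency list, which holds Tbx3, had 0 and 6 of 10, and the keratinocyte and surface ectoderm list, which holds Dlx3 and Tfap2a, had 5 and 2 of 12. The other lists hold no gene of the set. Among these, PGC genes had 1 called towards c-Kit- and 10 towards c-Kit+ of 13 tested, and primed pluripotency genes 2 and 4 of 9. Towards c-Kit- and c-Kit+ in that order, the calls were 8 and 1 of 18 for actin, SRF and YAP targets, 8 and 0 of 14 for S100 and annexin genes, 6 and 0 of 18 for p53 targets, 4 and 1 of 9 for retinoic acid genes and 4 and 0 of 5 for cell cycle inhibitors. Marker lists of other cell types had 2 and 2 of 5 for endoderm, 1 and 3 of 5 for endothelium and blood, 5 and 1 of 7 for fibroblasts and 4 and 0 of 7 for neural cells.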

How the data were processed

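The authors aligned reads to GENCODE transcripts with Bowtie2 and estimated expression with RSEM (version 1.3.1 per the submitters' processing notes for the 7-library table), on mm10. The deposited estimated counts (expected counts) are not normalized, and the deposited TPM values are scaled per transcript length within each library. The list of 29267 genes and the list of 50600 genes of the sorted libraries were made separately, so no test was run across them.

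Gene names, types and coordinates came from GENCODE M21 (GRCm38). Expected counts were rounded and c-Kit+ was compared with c-Kit- over all genes with edgeR (4.0.16: filterByExpr, TMM factors, quasi-likelihood F test, Benjamini-Hochberg adjustment; SE from the F statistic). Calls needed an unadjusted P under 0.05 and a fold over 2, the thresholds of the study. DESeq2 (1.42.0), other normalizations, filters and left-out libraries were alternatives. The SGC0946 libraries were compared as log2(TPM + 1), with exact binomial intervals that cover counting error only.

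Depth was 1.73 to 18.1 counts per library in units of 1e+06, and genes with few counts carry a wide spread. No replicate pair was alike within sampling noise: chi-square per degree of freedom was at least 2.01.

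Genes were named by rules: the 20 highest at Day 3, the 10 most changed on each side of the c-Kit comparison, members of 18 gene lists, those nearest the thresholds, and the 5 most changed each way with SGC0946. The members, lists and rules were chosen with earlier results of these data known. Esx1, Cd81, Tssc4, Slc22a18, Nrp1, the genes high only in unsorted cells and those in the position and promoter paragraphs were named after their values were seen. The single-cell, chromatin accessibility and ChIP data of the series were not used here. A few genes that met these rules are not reported here.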

Additional observations from a re-analysis of the deposited data

How the results depend on the processing

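The size of the set follows its thresholds: 158 genes met a fold of 4, 38 a fold of 16 and 54 a TPM of 50, against 89 as reported, while the other alternatives gave 74 to 119 and leaving out 1 EpiSC or BV+SC+ library gave 84 to 94. With CPM in place of TPM, 114 genes met the criteria, of which 79 were among the 89. In the c-Kit comparison, at least 10 counts in every library lowered the genes higher in c-Kit+ cells from 19 to 12 because fewer genes were tested, and moved the median log2 fold change from -0.37 to -0.62. Leaving out 1 library at a time gave 18 to 22 genes higher in c-Kit+ cells, 28 to 30 higher in c-Kit- cells and medians of -0.52 to -0.075. With SGC0946, a pseudocount of 5 TPM lowered the genes over 2-fold lower from 4 to 2. The count of genes at 8 times the higher sorted level, 21 as reported, was 14 to 24 under alternatives chosen after seeing the data. Sorted libraries with the same replicate number share no stated origin, and their deviations from the group means had a correlation of 0.11. A fit with the replicate number as a block called 19 and 28 genes, as without the block, with a median of -0.27. Depth limits the 16 untested genes: a level near 0 in the sorted libraries rests on few counts, such as 1 or 2 counts of Snai2 in a library.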
